A study of Mus musculus with 44 samples.

Results

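The BLSP (B cell lymphocyte stromal progenitor) population was compared with the other 4 downstream populations of the mouse skeletal lineage at the level of mRNA. Its members were the WT input libraries of BLSP, which are 2 of the 44 libraries in the series, and they were set against the 8 WT input libraries of PCP (pro-chondrogenic progenitor), THY, 6C3 and HEC, with 2 of each. The series comes from SLIM-seq, in which an antibody enriches RNA that carries m6A (IP) and the RNA before enrichment is sequenced beside it (input), so an input library measures mRNA. The question addressed was which genes set BLSP apart from its neighbors in the hierarchy.

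All 10 libraries came from long bones of untreated C57Bl6 mice at postnatal day 3. The labels give the genotype as wild type. The methods of the study use the name WT for Mettl3 fl/fl control mice without Col2a1-Cre, and femurs were collected regardless of sex from several litters, so a library is a sorted pool of cells and no label ties it to an animal. Cells were sorted as CD45-, Ter119-, Tie2- and CD51+. Within this gate BLSP was Thy1+, 6C3- and CD105-, whereas PCP (CD200+) and THY (CD200-) were Thy1+, 6C3- and CD105+. The 6C3 population (CD105+) and HEC (CD105-) were Thy1- and 6C3+. A sorted population is defined by surface antigens alone and can hold more than one cell type.

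As background, skeletal stem cells give rise to cartilage, bone and stromal cells, and the stroma feeds blood cell precursors with cytokines and chemokines. Nerve fibers also enter the developing long bone. They are wrapped by Schwann cells, the glia of peripheral nerves, which derive from the neural crest and, when they myelinate, fill their membrane with a small set of proteins and galactolipids.

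Each gene's value is given in CPM, its count relative to the library size after TMM scaling over the 10 libraries. The 10 input libraries held between 19795666 and 44046651 counts, with 26277353 and 38788039 in the BLSP libraries. Counts of mitochondrial genes made up 1.41% and 1.07% of the BLSP libraries and 0.287% to 1.07% of the other 8, and 25895 and 24530 genes were detected in BLSP against 20588 to 26442. Replicates of a population correlated at 0.957 to 0.970 in log2 CPM across genes and differed by more than sampling noise in all 5 populations. BLSP libraries correlated across genes at 0.944 to 0.963 with PCP and 0.946 to 0.955 with THY, and at 0.922 to 0.941 with 6C3 and 0.928 to 0.933 with HEC.

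The antigens used for sorting were read as a check of the labels and were not tested. Thy1 mRNA was at 32.5 and 25.1 CPM in BLSP, 18.0 to 35.5 in PCP and THY, and at most 0.448 in 6C3 and HEC. Enpep, which encodes 6C3, was at 5.61 and 4.19 CPM in BLSP against 42.8 to 57.7 in 6C3 and HEC. Eng, which encodes CD105, was at 18.2 and 26.3 CPM in BLSP, 33.0 and 33.1 in HEC, and 91.7 to 125 in PCP, THY and 6C3. Cd200 was at 46.1 and 50.2 CPM in BLSP, between PCP (88.1 and 112) and THY (8.48 and 9.42). Itgav (CD51) ranged from 64.2 to 119 CPM over all 10 libraries, and Ptprc (CD45) did not exceed 0.864. The mRNAs of Thy1, 6C3 and CD105, which define BLSP within the common gate, thus stood on the side that its label gives. Values for Tie2 and Ter119 are not given.

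Markers of lymphocytes were low in BLSP and in the other 8 libraries, all of which were sorted as CD45-. The 12 genes of a B and T lymphocyte list summed to 4.43 and 7.22 CPM in BLSP and to 3.601 to 9.36 in the other 8 libraries, and Igll1 and Cd3e had no count in BLSP.

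Of 19604 genes tested with edgeR's quasi-likelihood test, 602 (3.07%) were higher and 378 (1.93%) lower in BLSP than in the mean of the other 4 populations at a Benjamini-Hochberg adjusted p under 0.05. Of these, 329 (1.68% of genes tested) were called higher with both BLSP libraries above all 8 others, and 165 (0.842%) were called lower with both below all 8. Regardless of the test, 4.71% of genes had both BLSP libraries above all 8 and 3.08% had both below. Protein coding genes made up 306 of the 329 and 160 of the 165. The median log2 fold change was 2.52 in the 329 genes, 195 of which rose by more than 2 on the log2 scale, and -1.06 in the 165. By edgeR the higher and lower sides differed in number, whereas DESeq2's Wald test gave 721 higher and 666 lower. Of these, 362 lay above and 242 below all 8. The sides also differed in size, although fold changes of genes with almost no counts in 6C3 and HEC have no fixed size.

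The edgeR counts leaned on both BLSP libraries. Without BLSP replicate 1 they were 283 higher and 96 lower, and without BLSP replicate 2 they were 247 and 80. The lower count was 583 without PCP replicate 1 and 652 without 6C3 replicate 1. With library size alone in place of TMM, which moved the median log2 fold change of all genes from 0.05 to 0.31, 1224 genes were higher and 201 lower.

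**Figure D1:**
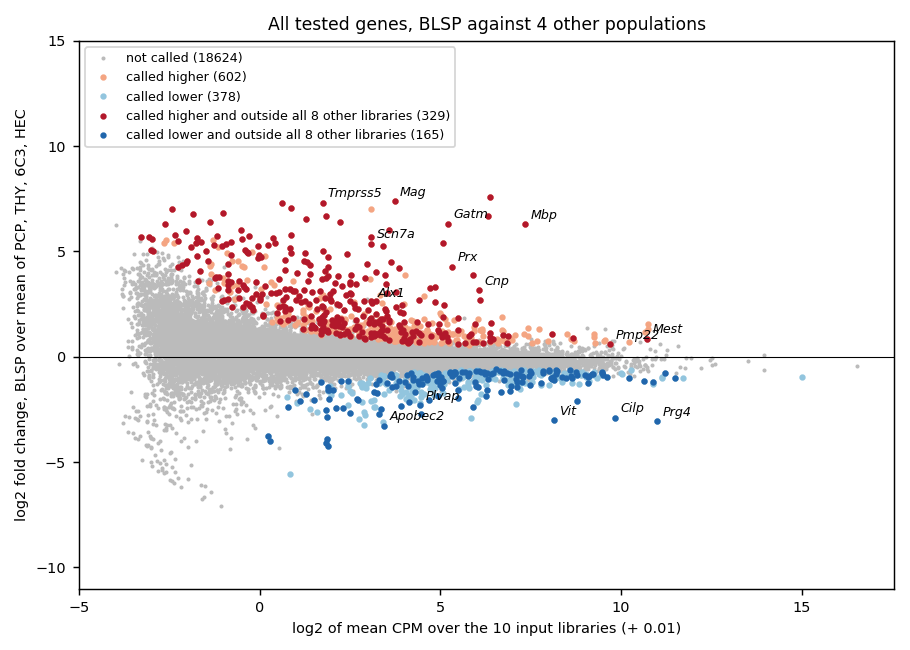
Log2 fold change of BLSP over the mean of the other 4 populations (vertical axis) against the log2 of mean CPM over the 10 input libraries (horizontal axis), 1 point per tested gene. Red and blue points are the 329 genes called higher and the 165 called lower whose BLSP libraries lie outside all 8 others, and the red points reach much larger changes than the blue ones.

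The other populations were not equally far from BLSP. Against PCP, 33 genes were higher and 78 lower (0.566% of genes tested in either direction), and against THY 297 and 242 (2.75%). Against 6C3 these were 850 and 904 (8.95%), and against HEC 1080 and 974 (10.5%). Among the 329 higher genes with BLSP above all 8, PCP had the highest mean of the other populations for 257, THY for 37, HEC for 22 and 6C3 for 13. The 4 comparisons share the BLSP libraries, so their calls are not independent of each other.

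The gates of the 10 libraries split them by Thy1, and the comparison was therefore repeated within and across this split, a choice made after seeing the data. Against the mean of PCP and THY, the other Thy1+ populations, 150 genes (0.765%) were higher and 78 (0.398%) lower in BLSP. Against the mean of 6C3 and HEC, 1394 (7.11%) were higher and 1153 (5.88%) lower. Without BLSP replicate 1 or 2 the sum of both directions was 89 or 80 genes within the Thy1+ gate, in place of 228, and 1327 or 1209 across it, in place of 2547. Of the 602 genes called higher against all 4, the mean of PCP reached that of BLSP for 134, the mean of THY for 42, that of HEC for 1 and that of 6C3 for 0.

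The genes with the largest rise in BLSP included Mag and Mbp, which encode proteins of myelin. Among named genes called higher, above all 8 other libraries and at 10 CPM or more in BLSP, 13 of the 15 with the largest change are described here, namely Mag, Tmprss5, Bcas1, Cldn19, Ugt8a, Gatm, Mbp, Fa2h, Plxnb3, Kcna1, Scn7a, Egfl8 and Gpr37l1. Their log2 fold changes ran from 5.005 to 7.40, with adjusted p of at most 7.6e-05 by edgeR. All 13 were called against THY, 6C3 and HEC taken singly, and 5 of the 13 against PCP. Of all genes, 2.75% were called against THY, 8.95% against 6C3, 10.5% against HEC and 0.566% against PCP. The 13 were chosen by a contrast with the mean of these populations, so nothing is read from these counts. PCP came next to BLSP for all 13, at 5.03% to 77.9% of the BLSP mean. Because several of these genes had counts at or near 0 in 6C3 and HEC, the fitted fold changes depend on the prior count that edgeR adds, and CPM values and ratios to PCP are given beside them.

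Mbp, myelin basic protein, which compacts the membrane from the cytoplasmic side, was at 722 and 702 CPM in BLSP, 47.2 and 110 in PCP, 21.9 and 20.1 in THY, 1.81 and 1.35 in 6C3, and 2.44 and 2.88 in HEC. Mag, an adhesion molecule between myelin and axon, was at 65.5 and 55.5 CPM in BLSP, 2.73 and 6.04 in PCP, 1.04 and 1.13 in THY, and 0.244 or less in 6C3 and HEC. For both genes the groups did not overlap, and the order was BLSP, PCP, THY and then the 6C3+ populations. That BLSP lay above all other libraries follows from the rule by which these genes were named. Their log2 fold changes were 6.28 ± 0.22 for Mbp (SE, adjusted p = 1.08e-09) and 7.40 ± 0.29 for Mag (adjusted p = 3.31e-09), by edgeR. The BLSP mean was 9.08-fold that of PCP for Mbp and 13.8-fold for Mag, and both passed the threshold against PCP alone (adjusted p = 0.000329 and 0.000291).

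Of the enzymes among the 13, Ugt8a, which makes galactosylceramide, was at 18.9 and 20.0 CPM in BLSP against 1.59 and 3.78 in PCP and at most 1.04 elsewhere (log2 fold change 6.39 ± 0.41, adjusted p = 6.34e-07 by edgeR). Fa2h, which hydroxylates the fatty acids of these lipids, was at 51.6 and 54.9 CPM against 3.12 and 5.27 in PCP and at most 1.32 elsewhere (6.03 ± 0.25, adjusted p = 5.83e-09). Gatm, the first enzyme of creatine synthesis, was at 159 and 141 CPM against 11.0 and 53.9 in PCP and at most 2.75 elsewhere (6.31 ± 0.36, adjusted p = 1.89e-07). The PCP libraries differed from each other more than the BLSP libraries did, and Gatm was not called against PCP alone (adjusted p = 0.0832).

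Junction, channel and receptor genes followed. Cldn19, a claudin of tight junctions, was at 12.2 and 10.4 CPM in BLSP and at most 0.878 in the other 8, and showed the widest gap, 11.9-fold to the highest of them. Kcna1, a voltage-gated potassium channel, was at 116 and 141 CPM against 25.7 and 40.5 in PCP and at most 2.61 elsewhere. Plxnb3, a semaphorin receptor, was at 33.6 and 34.7 CPM against 1.66 and 13.2 in PCP. Scn7a, an atypical sodium channel, was the exception among the 13. It was at 21.4 and 20.1 CPM in BLSP, 15.8 and 16.5 in PCP and 6.07 and 4.78 in THY, and its difference within the Thy1+ gate did not pass the threshold (log2 fold change 1.15, adjusted p = 0.0703).

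**Figure D2:**
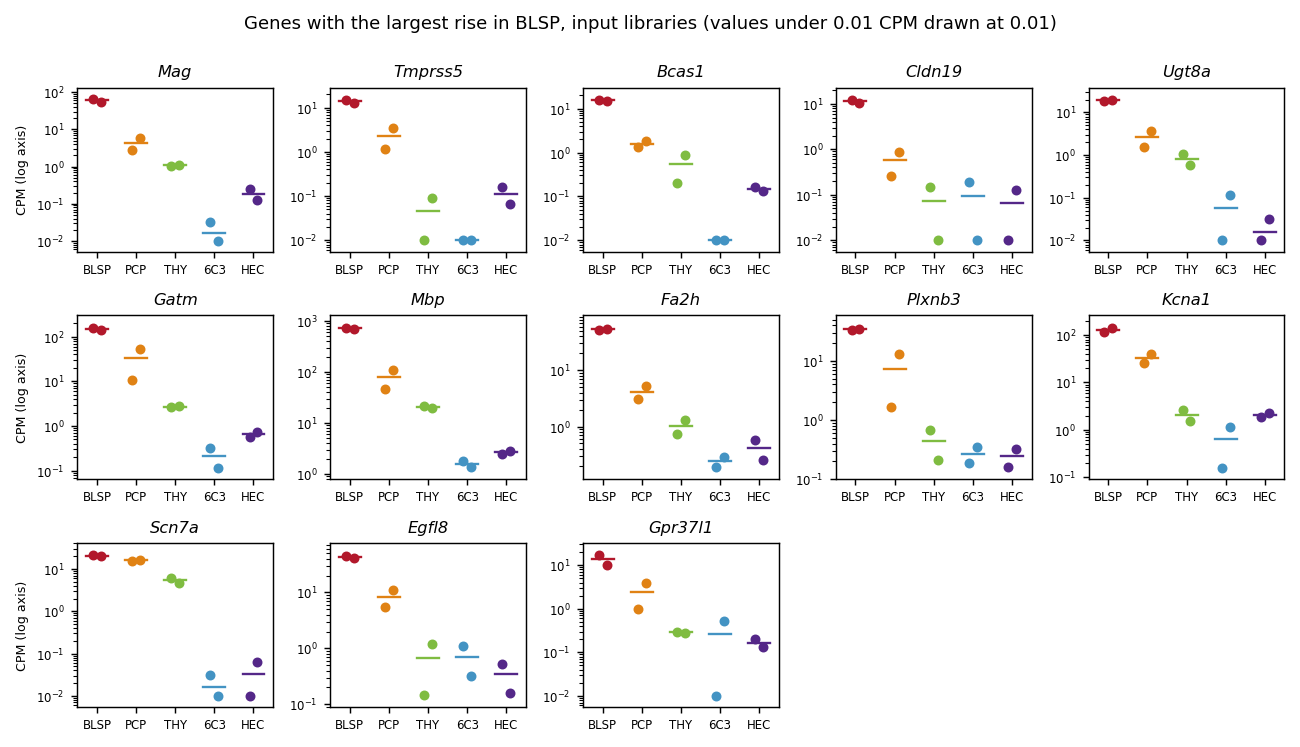
CPM on a log axis in each of the 10 input libraries for 13 of the 15 genes with the largest rise in BLSP, with points for libraries and lines for the mean of 2 replicates. BLSP is highest in each panel and PCP is next, and the second PCP library is above the first for all 13.

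In a list of 10 Schwann cell and nerve markers, the members called were glial genes. Mbp, Sox10, Erbb3 and Cdh19 were called higher, none was called lower, and the median log2 fold change was 2.43 against 0.05 for all genes tested. The background for a call in this direction was 3.07%. The same 4 genes had both BLSP libraries above all 8 others. They were called within the Thy1+ gate as well, where 0.765% of all genes were higher. The list was chosen with earlier results of these data known, and Mbp was also among the leading genes. The count is therefore a description and no separate support. The count stayed at 4 or 5 when single libraries were left out, except that it was 6 without either 6C3 library.

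Sox10, the transcription factor that Schwann cells need at every stage, was at 29.8 and 26.0 CPM in BLSP, 5.23 and 12.8 in PCP, and 0.191 to 2.59 in the other 6 libraries (log2 fold change 4.40 ± 0.45, adjusted p = 4.5e-05 by edgeR). Erbb3, the receptor for neuregulin, was at 17.8 and 20.3 CPM in BLSP, 2.84 and 8.61 in PCP and at most 1.53 elsewhere (3.46 ± 0.35, adjusted p = 3.68e-05). Cdh19, a cadherin of Schwann cell precursors, was at 19.0 and 15.1 CPM in BLSP, 4.21 and 12.3 in PCP and at most 2.04 elsewhere (3.55 ± 0.49, adjusted p = 0.000577). The PCP mean was 32.3% of the BLSP mean for Sox10, 30.1% for Erbb3 and 48.5% for Cdh19, and 11.0% for Mbp. Against PCP alone, Mbp passed the threshold, whichever library was left out, and the other 3 did not.

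The 6 members that were not called included the neuron genes Tubb3, Stmn2, Gap43 and Elavl4. None of the 6 was called within the Thy1+ gate either. Against the mean of 6C3 and HEC, 7 of the 10 members were higher and 1 lower, so some of the 6 were higher there. Of all genes, 7.11% were higher and 5.88% lower in that contrast. Gap43 was at 20.0 and 18.8 CPM in BLSP, 17.1 and 27.0 in PCP and 54.7 and 53.1 in THY, and Stmn2 was at 2.90 and 1.61 CPM in BLSP and 3.69 to 5.54 in PCP and THY. S100b, shared by glia and cartilage, was at 16.8 and 13.2 CPM in BLSP and at 24.7 to 50.1 in 6C3 and HEC. Foxd3, a neural crest factor, was at 0.554 and 0.657 CPM in BLSP and missed the threshold (adjusted p = 0.0594 by edgeR).

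The 10 markers summed to 838 and 804 CPM in BLSP, 101 and 197 in the PCP libraries and 37.7 to 99.0 in the other 6, and all 10 were detected in BLSP. In these bulk libraries a larger share of cells of one type and more of its RNA per cell cannot be told apart. The part of Schwann cells in the other differences of BLSP was not tested.

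The genes Prx, Cnp, Dhh and Mal, like Lef1, Bmp4 and Bmp6, were named after their values had been seen, and so were Sox9, Sox10 and Cdh19, which the rule for list members also names. Prx encodes periaxin of the myelin sheath of Schwann cells and was at 155 and 170 CPM in BLSP, 13.0 and 24.0 in PCP and 5.02 to 7.97 in the other 6 libraries (4.28 ± 0.20, adjusted p = 3.12e-08 by edgeR). Cnp, an enzyme of noncompact myelin, was at 229 and 218 CPM against 35.7 and 68.2 in PCP and 14.2 to 25.3 elsewhere. Dhh, the Hedgehog ligand that Schwann cells secrete, was at 19.0 and 22.8 CPM against 1.90 and 6.10 in PCP and at most 2.69 elsewhere (3.87 ± 0.37, adjusted p = 2.5e-05). When the 8 other libraries were treated as 1 group, so that the spread between populations entered the error, 8 genes were called higher and none lower. They were Prx, Cnp, Mal, Aatk, Kif1a, Itgb8, Hspa12a and Sbspon, at adjusted p of 0.0127 to 0.0466 by edgeR. Mal is a membrane protein of compact myelin, and its mean was 57.0 CPM in BLSP against 8.80 in PCP.

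Promoters of Mag, a leading gene, and of Prx and Cnp, named after their values were seen, are shown because these genes rose together. That of Cilp is shown because it fell most among genes called against PCP, THY, 6C3 and HEC alike. The sequences are from RefSeq (GRCm38.p6) and run 5′ to 3′ on the strand of the gene, from 250 bases before to 50 after its start. Capitals mark matches, on both strands, to any of 10 motifs searched: TATAAA (core promoter box), GGGCGG (GC box), TGA and TCA around any base (AP-1), TGTGGT (RUNX), CAGCTG (E-box), AACAAT (SOX), TAATTA (homeodomain), CATTCC (TEAD), TGTTTAC (forkhead) and TTCNNNGAA (STAT). The first of the 3 entries is shown for Mag.
Mag, chr7:30914814-30915113, minus strand: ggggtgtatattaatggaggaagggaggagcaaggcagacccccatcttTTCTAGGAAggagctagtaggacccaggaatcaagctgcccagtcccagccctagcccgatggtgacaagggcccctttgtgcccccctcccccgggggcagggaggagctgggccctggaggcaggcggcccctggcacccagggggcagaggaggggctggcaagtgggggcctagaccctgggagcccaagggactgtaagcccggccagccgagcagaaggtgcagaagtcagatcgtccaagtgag
Prx, chr7:27499074-27499373, plus strand: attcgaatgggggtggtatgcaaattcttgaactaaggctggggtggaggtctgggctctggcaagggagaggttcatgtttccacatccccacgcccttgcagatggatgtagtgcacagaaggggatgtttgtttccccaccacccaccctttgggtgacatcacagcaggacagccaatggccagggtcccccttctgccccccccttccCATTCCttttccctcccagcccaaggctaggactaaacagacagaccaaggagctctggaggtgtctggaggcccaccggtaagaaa
Cnp, chr11:100574689-100574988, plus strand: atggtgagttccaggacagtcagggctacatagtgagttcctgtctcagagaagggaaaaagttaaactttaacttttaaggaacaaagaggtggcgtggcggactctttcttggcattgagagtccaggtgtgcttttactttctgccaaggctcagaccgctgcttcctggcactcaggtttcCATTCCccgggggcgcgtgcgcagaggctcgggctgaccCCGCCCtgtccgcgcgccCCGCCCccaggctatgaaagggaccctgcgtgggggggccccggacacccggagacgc
Cilp, chr9:65264930-65265229, plus strand: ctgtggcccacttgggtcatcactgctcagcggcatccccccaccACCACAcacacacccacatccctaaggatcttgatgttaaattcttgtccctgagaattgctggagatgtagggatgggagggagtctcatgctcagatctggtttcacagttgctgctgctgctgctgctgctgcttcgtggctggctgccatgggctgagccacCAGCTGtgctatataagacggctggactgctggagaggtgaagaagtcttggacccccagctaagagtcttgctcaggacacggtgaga

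The Mag window held 1 STAT match, that of Prx 1 TEAD match, that of Cnp 1 TEAD and 2 GC box matches, and that of Cilp 1 RUNX and 1 E-box match. Of the 329 higher genes above all 8, 240 had an entry, with 329 promoters. The SOX letters were in 6.69% of these promoters, in 6.25% of those of all genes tested and in 10.7% of all promoters in the reference. The TEAD letters were in 17.3%, 13.0% and 14.7%, and the GC box in 51.4%, 56.9% and 35.7%. A match is a description of the letters and no site of binding.

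By abundance rather than by fold change, the 5 named genes with most CPM in BLSP among those above all 8 were Mest, Pmp22, Mbp, Col8a1 and Matn3. Apart from Mbp their changes were small. Mest, an imprinted gene expressed from the paternal allele, was at 2432 and 2515 CPM in BLSP, 1814 to 2233 in PCP and THY and 707 to 1104 in 6C3 and HEC (0.86 ± 0.18, adjusted p = 0.0125 by edgeR). Pmp22, a peripheral myelin protein that many other cells also make, was at 1163 and 1096 CPM in BLSP, 510 and 535 in PCP, 907 and 795 in THY, and 722 to 911 in 6C3 and HEC (0.61 ± 0.14, adjusted p = 0.0262). It passed the threshold against PCP alone (adjusted p = 0.0186), but not without either BLSP library (0.233 and 0.130) or PCP replicate 1 (0.0648).

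Col8a1, a short-chain collagen, was at 526 and 755 CPM in BLSP and 187 to 464 in the other 8 (0.90 ± 0.23, adjusted p = 0.0393 by edgeR). Matn3, a matrilin of cartilage matrix, was at 431 and 458 CPM in BLSP, 348 and 390 in PCP and 117 to 258 in the other 6 (1.06 ± 0.21, adjusted p = 0.00768). The gaps to the nearest other library were narrow, 1.09-fold to 1.20-fold. Without BLSP replicate 1 or 2 none of these 4 calls held, with adjusted p of 0.125 and 0.184 for Mest, 0.358 and 0.266 for Pmp22, 0.0675 and 0.553 for Col8a1, and 0.0636 and 0.115 for Matn3. Leaving out either THY or either HEC library also ended the call of Col8a1 (adjusted p 0.0548 to 0.0831). For Pmp22, THY replicate 2 and either HEC library did so (0.0597 to 0.0745).

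The genes that fell most in BLSP differed in what they encode. The 12 named genes with the largest fall, among those below all 8 and at 10 CPM or more in the others, were Apobec2, Prg4, Vit, Cilp, Gdf6, Rab37, Ggt1, Mall, Chrdl2, Plvap, Dlx3 and Clec3a. Their log2 fold changes ran from -3.26 to -2.12. All 12 were called against 6C3 and against HEC, 6 of the 12 against THY and 3 (Cilp, Chrdl2 and Plvap) against PCP. Of all genes, 8.95% were called against 6C3, 10.5% against HEC, 2.75% against THY and 0.566% against PCP. The 12 were chosen by a contrast with the mean of these populations, so nothing is read from these counts. Plvap was called against PCP whichever library was left out, Cilp was not without BLSP replicate 1 (adjusted p = 0.0679 by edgeR), and Chrdl2 was not without either BLSP library, PCP replicate 1 or THY replicate 2 (0.0586 to 0.299). PCP had the lowest mean of the other populations for 10 of them and THY for the rest.

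Prg4, which encodes lubricin of the joint surface, was at 113 and 111 CPM in BLSP, 162 and 170 in PCP, 232 and 272 in THY, 1456 and 3610 in 6C3, and 8030 and 6429 in HEC (-3.06 ± 0.31, adjusted p = 4.36e-05 by edgeR). Vit, which encodes the matrix protein vitrin, was at 15.1 and 18.2 CPM in BLSP, 19.2 to 32.0 in PCP and THY, and 485 to 892 in 6C3 and HEC (-3.02 ± 0.24, adjusted p = 4.02e-06). For both genes the steps from BLSP to PCP and THY were small beside those to the 6C3+ populations, and neither passed the threshold within the Thy1+ gate (adjusted p = 0.243 and 0.176).

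Cilp, cartilage intermediate layer protein, kept its fall within that gate. It was at 108 and 116 CPM in BLSP, 425 and 327 in PCP, 547 and 518 in THY, 792 and 1112 in 6C3, and 2276 and 2844 in HEC. The log2 fold change was -2.90 ± 0.22 (SE, adjusted p = 2.91e-06 by edgeR), and -2.0 within the gate (adjusted p = 0.000307). Chrdl2, a secreted antagonist of BMP, was at 3.52 and 3.24 CPM in BLSP and 7.20 to 27.4 in the other 8 (-2.34 ± 0.27, adjusted p = 0.000135). Rab37, a small GTPase, was at 2.12 and 2.49 CPM in BLSP, 3.55 and 3.54 in PCP, 22.1 to 84.0 in THY and 6C3, and 8.06 and 8.45 in HEC.

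Plvap, a protein of endothelial diaphragms, was at 5.28 and 4.30 CPM in BLSP against 51.4 and 39.4 in PCP and 13.2 to 29.8 in the other 6 (-2.30 ± 0.25, adjusted p = 7.21e-05 by edgeR). Of 11 endothelial markers tested, without Tek, which the sort used, Plvap, Flt1 and Erg were called lower and none higher. Of all genes, 1.93% were lower and 3.07% higher. Flt1, a VEGF receptor, was at 13.5 and 18.4 CPM in BLSP and 22.2 to 77.4 in the other 8 (-1.57 ± 0.20, adjusted p = 0.000316). Erg was not called without BLSP replicate 1 or 2 (adjusted p = 0.250 and 0.0735). The list summed to 45.8 and 54.6 CPM in BLSP, 254 and 276 in PCP, and 64.8 to 176 in the other 6. Within the Thy1+ gate 5 of the 11 were called lower, beside 0.398% of all genes. Among them was Pecam1, at 2.05 and 3.08 CPM in BLSP and 52.9 and 43.7 in PCP but 1.28 and 2.59 in THY. The call of Pecam1 in this gate was lost without either BLSP library, PCP replicate 1 or THY replicate 2 (adjusted p 0.0573 to 0.419). The part of endothelial RNA in the PCP libraries in this difference was not tested.

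**Figure D3:**
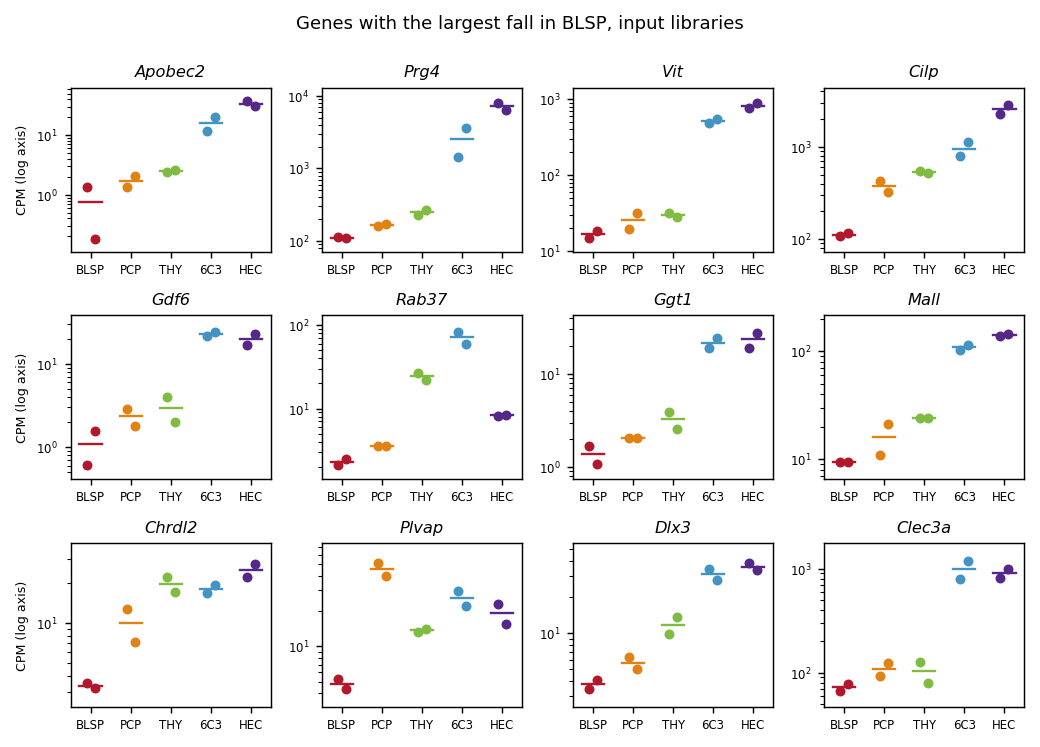
CPM on a log axis in each of the 10 input libraries for the 12 named genes with the largest fall in BLSP, with points for libraries and lines for the mean of 2 replicates. BLSP is lowest in each panel, and the highest population is HEC in 8 panels, 6C3 in 3 and PCP in that of Plvap.

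Gene lists of skeletal differentiation and signaling were read by counts and medians, and no list was tested as a whole. Over all genes 3.07% were higher and 1.93% lower, which is the background for each list count that follows. Over 6 lists (bone, fibrous tissue, cartilage, Wnt, BMP and TGF-beta, and limb transcription factors), 52 genes were called, 28 higher and 24 lower. Of these, 52 were called against 6C3 and 51 against HEC, 13 against THY and 1 (Kera) against PCP. Of all genes, 8.95% were called against 6C3, 10.5% against HEC, 2.75% against THY and 0.566% against PCP. The 52 were chosen by a contrast with the mean of these populations, so nothing is read from their counts. Within the Thy1+ gate 4 of the 52 were called, against 0.765% higher and 0.398% lower of all genes.

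Of 29 osteoblast and bone matrix genes, 7 were higher, 2 lower and 20 not called, with a median log2 fold change of 0.26 against 0.05 for all genes. None of the 7 had BLSP above all 8. The list summed to 93625 and 105135 CPM in BLSP and 97715 to 176418 in the other 8, whose median was 131417. Runx2, the master factor of osteoblasts, was at 74.2 CPM in both BLSP libraries, 90.2 and 94.8 in PCP, 35.5 and 35.6 in THY and 12.8 to 24.5 in 6C3 and HEC (1.24 ± 0.17, adjusted p = 0.000627 by edgeR). Alpl, the alkaline phosphatase of mineralizing cells, was at 256 and 267 CPM in BLSP, 400 and 417 in PCP, 83.2 and 91.6 in THY and 38.8 to 76.7 in 6C3 and HEC (1.37 ± 0.17, adjusted p = 0.000247). BLSP thus lay between PCP and THY for both. Bglap (osteocalcin) had a log2 fold change of 2.93, but Bglap and Bglap2 are near-identical neighbors whose reads may have been split between them. Dlx3, a homeobox factor, was at 3.42 and 4.08 CPM in BLSP, 4.98 to 13.7 in PCP and THY and 27.8 to 38.3 in 6C3 and HEC, and was the list member called lower within the Thy1+ gate (-1.12, adjusted p = 0.0354). This call was lost without either BLSP or HEC library, PCP replicate 1 or THY replicate 2 (adjusted p 0.0528 to 0.492). The count of higher members was 3 without BLSP replicate 2, and that of lower members ran from 1 to 4 over the libraries left out.

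Of 30 genes of fibrous connective tissue and tendon, 7 were higher and none lower, again none above all 8, and the median was 0.12. Aspn, a small leucine-rich proteoglycan, was at 2159 and 2344 CPM in BLSP, 2374 to 3532 in PCP and THY and 196 to 391 in 6C3 and HEC (1.33 ± 0.14, adjusted p = 5.4e-05 by edgeR). Pi16, a marker of adventitial fibroblasts, was at 43.1 and 33.3 CPM in BLSP, 25.6 and 35.7 in PCP, 79.1 and 92.5 in THY and at most 1.84 in 6C3 and HEC (2.07 ± 0.18, adjusted p = 8.66e-06). Kera (keratocan) was at 209 and 181 CPM in BLSP against 80.5 and 64.9 in PCP (adjusted p = 0.00682), while THY was at 310 and 231, and without BLSP replicate 1 it was not called against PCP (0.107). The count of higher members was 4 without BLSP replicate 1, and 1 to 3 members were lower without PCP replicate 2 or either 6C3 library. Within the Thy1+ gate 4 members were lower and none higher. Mfap5, a microfibril protein, was at 278 and 232 CPM in BLSP, 500 and 342 in PCP and 1563 and 1303 in THY (-1.61, adjusted p = 0.00317, and 0.0837 without BLSP replicate 2).

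Of 28 cartilage genes, 9 were lower and 1 (Matn3) higher, and the median was -0.36. Sox9, the master factor of cartilage, was at 1713 and 1557 CPM in BLSP, 1521 to 2276 in PCP and THY and 4123 to 6437 in 6C3 and HEC (-1.02 ± 0.20, adjusted p = 0.00721 by edgeR). Comp, a matrix protein of cartilage and tendon, was at 641 and 743 CPM in BLSP, 780 to 1056 in PCP and THY and 2152 to 3029 in 6C3 and HEC (-1.15 ± 0.18, adjusted p = 0.00193). Against 6C3 and HEC 18 of the 28 were lower, whereas within the Thy1+ gate none was lower and 2 (Ucma and Matn4) were higher. Neither of these was called without BLSP replicate 1 (adjusted p = 0.154 and 0.172) or 2 (0.0925 and 0.455), nor without THY replicate 2 (0.0955 and 0.159), and Matn4 was not without THY replicate 1 or either HEC library (0.0577 to 0.137). The list summed to 20620 and 22941 CPM in BLSP, and 11761 to 127602 in the other 8. Without BLSP replicate 1 Sox9 and Comp were not called (adjusted p = 0.0926 and 0.0811), and without BLSP replicate 2 Sox9 was not (0.172). The count of lower members was 1 without BLSP replicate 1, 2 without BLSP replicate 2, 5 without either THY library and up to 12 otherwise.

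Of 36 genes of Wnt signaling 10 were higher and 3 lower, with a median of 0.32. The list summed to 2139 and 2441 CPM in BLSP and 2198 to 5245 in the other 8 libraries, whose median was 3641. The higher count was 6 without BLSP replicate 1, THY replicate 2 or HEC replicate 2, and 4 without BLSP replicate 2. The lower count was 1 without either BLSP library or THY replicate 2. The ligand Wnt5a was at 60.6 and 64.1 CPM in BLSP, 65.3 and 56.5 in PCP, 36.6 and 37.1 in THY and 5.67 to 8.38 in 6C3 and HEC (1.81 ± 0.16, adjusted p = 8.66e-06 by edgeR). The receptor Fzd1 was at 106 and 142 CPM in BLSP, 128 and 106 in PCP and 19.5 to 53.8 in the other 6 (1.33 ± 0.18, adjusted p = 0.000527). The secreted antagonist Wif1 was at 627 and 736 CPM in BLSP, 686 to 1003 in PCP and THY and 2928 to 3814 in 6C3 and HEC (-1.30 ± 0.18, adjusted p = 0.000507).

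Only Sfrp2 and Lef1 of these 10 had BLSP above all 8, and both were called within the Thy1+ gate. Sfrp2, a secreted modulator of Wnt, was at 102 and 148 CPM in BLSP, 55.3 to 75.2 in PCP and THY and 20.7 to 31.9 in 6C3 and HEC (1.55 ± 0.17, adjusted p = 8.64e-05 by edgeR, and 0.0443 within the gate). Lef1, a transcription factor of the pathway, was at 32.3 and 40.5 CPM in BLSP, 30.3 and 20.5 in PCP and 10.4 to 20.0 in the other 6 (1.14 ± 0.21, adjusted p = 0.00481, and 0.0396 within the gate). Without BLSP replicate 2 Lef1 was not called against all 4 either (0.162). Within the gate both calls were lost without either BLSP or THY library or PCP replicate 2, and that of Sfrp2 also without either HEC library (adjusted p 0.0579 to 0.835). The third call within the gate was Wnt5b, at -1.52 on the log2 scale (adjusted p = 0.00631, and 0.121 and 0.0996 without either BLSP library), so that ligand, modulator and effector did not move in 1 direction.

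Of 35 genes of BMP and TGF-beta signaling, 6 were lower and none higher, with a median of -0.04. All 6 encode BMP family ligands, namely Bmp2, Bmp4, Bmp6, Gdf5, Gdf6 and Gdf10. Without BLSP replicate 1 or 2 the calls of Bmp2, Bmp4 and Bmp6 were lost (adjusted p 0.134 to 0.284 by edgeR), and 3 members were lower. Without PCP replicate 1 there were 4 higher. Bmp6 was also not called without THY replicate 2 (0.0565). Gdf10 was at 46.1 and 50.9 CPM in BLSP, 51.9 to 87.3 in PCP and THY and 215 to 290 in 6C3 and HEC (-1.41 ± 0.19, adjusted p = 0.000357 by edgeR). Gdf5, which marks the joint-forming region, was at 6.10 and 4.71 CPM in BLSP, 4.62 to 8.24 in PCP and THY and 28.8 to 57.1 in 6C3 and HEC (-1.69 ± 0.24, adjusted p = 0.000672). Within the Thy1+ gate none of the 6 was called, and Bmp7 was higher in BLSP, at 23.3 and 31.2 CPM against 8.78 to 12.2 in PCP and THY (1.31, adjusted p = 0.00596, and 0.188 without BLSP replicate 2). Bmp7 was at 22.8 to 30.2 CPM in 6C3 and HEC.

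Of 39 limb and mesenchyme transcription factors, 4 were higher and 4 lower, with a median of -0.11. The higher count was 2 and 1 without BLSP replicate 1 and 2, 8 without PCP replicate 1 and 7 without either 6C3 library. The lower count was 1 without either BLSP library, THY replicate 2 or either HEC library, and 2 without THY replicate 1. Alx1, a homeobox factor of mesenchyme, was the only one of the higher 4 with BLSP above all 8. It was at 19.5 and 28.9 CPM in BLSP, 9.53 and 4.96 in PCP, 7.69 and 5.36 in THY and 1.58 to 4.07 in 6C3 and HEC (2.56 ± 0.27, adjusted p = 6.42e-05 by edgeR, and 0.0127 within the Thy1+ gate). The call within the gate was lost without BLSP replicate 2 (0.269) or THY replicate 2 (0.0811). An overlapping transcript on the same strand may share its reads. Hoxd9 was at 4.63 and 5.23 CPM in BLSP, 5.07 to 11.7 in PCP and THY and 28.5 to 35.9 in 6C3 and HEC (-1.83 ± 0.28, adjusted p = 0.00146).

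**Figure D4:**
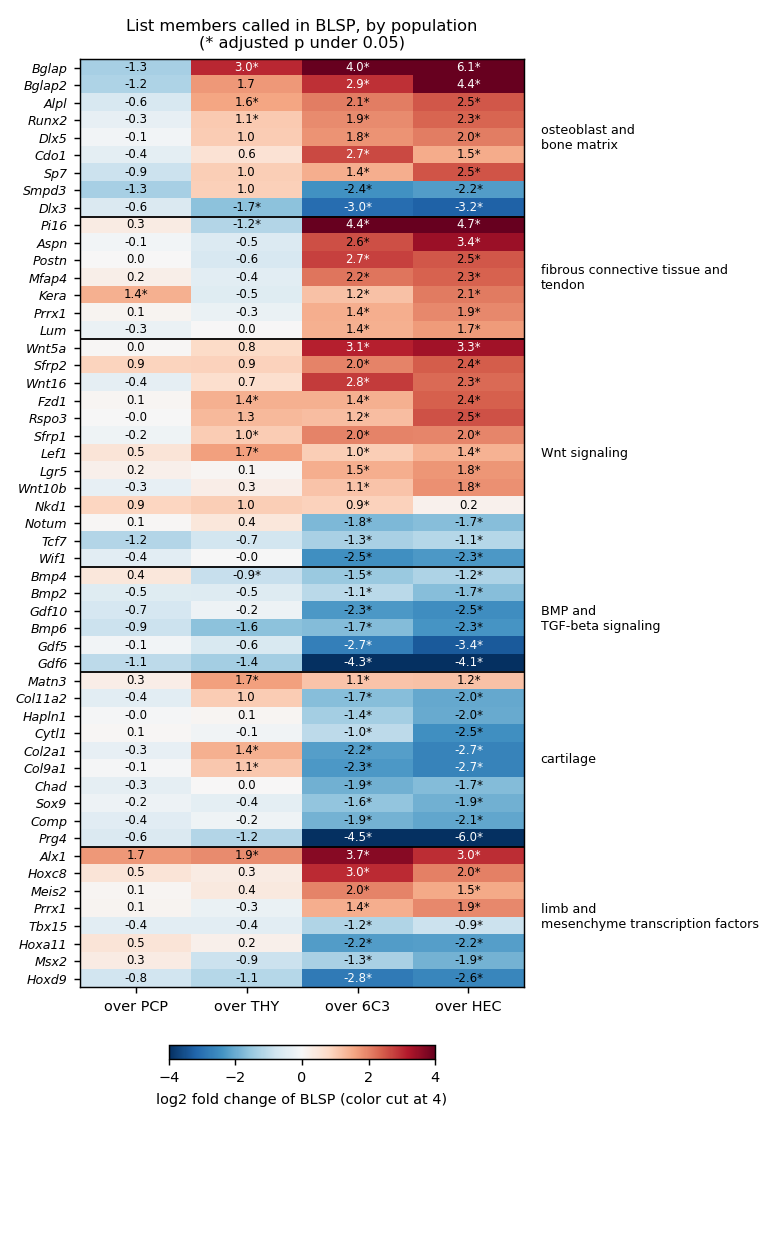
Log2 fold change of BLSP over each of the 4 other populations for the called genes of 6 lists, with red for higher and blue for lower in BLSP and an asterisk for an adjusted p under 0.05. Color fills the columns of 6C3 and HEC and is faint in that of PCP, where Kera alone has an asterisk.

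Of 18 Hedgehog genes 1 was higher and 2 lower. The higher count was 0 without BLSP replicate 2, PCP replicate 2 or either THY or HEC library, and 2 without PCP replicate 1 or 6C3 replicate 2. The lower count was 0 and 1 without BLSP replicate 1 and 2, 6 without PCP replicate 2 and 4 without PCP replicate 1 or 6C3 replicate 2. The inhibitor Hhip was at 38.5 and 43.6 CPM in BLSP, 40.4 to 50.6 in PCP and THY and 125 to 190 in 6C3 and HEC (-1.04 ± 0.17, adjusted p = 0.00211 by edgeR, and 0.0930 without BLSP replicate 1). Of 25 genes of IGF and FGF signaling only Igfbp3 was called, an IGF binding protein at 157 and 147 CPM in BLSP, 89.6 to 139 in PCP and THY and 18.1 to 24.8 in 6C3 and HEC (1.62 ± 0.17, adjusted p = 5.09e-05). The higher count was 4 without PCP replicate 1 or 6C3 replicate 2, 3 without 6C3 replicate 1 and 2 without THY replicate 1. Of 18 Notch genes 1, the ligand Dll1, was lower, at 1.53 and 1.25 CPM in BLSP, with THY below it at 1.04 and 1.15. It was not called without BLSP replicate 1 or 2 (adjusted p = 0.0605 and 0.158).

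The name of the population refers to the support of lymphoid cells. Of 23 niche factors for lymphoid and other blood cells, 1 was higher, 3 lower and 19 not called, with a median of -0.21, beside 3.07% higher and 1.93% lower of all genes. The lower count was 0 without either BLSP library, 6 without 6C3 replicate 1 and 5 without 6C3 replicate 2, and the higher count ran from 0 to 2. Tnfsf13b, the cytokine BAFF, was the higher one, at 2.12 and 3.53 CPM in BLSP, but PCP was at 14.5 and 9.53, and it was not called without BLSP replicate 2 (adjusted p = 0.428 by edgeR). Tnfrsf11b (osteoprotegerin) was at 74.8 and 67.0 CPM in BLSP and 86.1 to 213 in the other 8 (-1.06 ± 0.22, adjusted p = 0.012, and 0.112 and 0.210 without either BLSP library). Il7, the cytokine of B cell precursors, was at 3.59 and 2.08 CPM in BLSP and 1.83 to 7.51 in the other 8. Cxcl12 and Kitl, the main retention chemokine and the stem cell factor of marrow stroma, were picked after their values had been seen. Against PCP alone Cxcl12 had a log2 fold change of -2.42 (adjusted p = 0.0034), at 237 and 387 CPM in BLSP and 2268 and 1079 in PCP. Kitl had one of -1.37 (adjusted p = 0.00777), at 47.1 and 48.8 CPM against 142 and 106. Cxcl12 was not called against PCP without BLSP replicate 1 (0.0565), and Kitl was not without BLSP replicate 1 or 2 (0.159 and 0.0954).

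Of 24 chemokine and complement genes 3 were higher and 1 lower. The higher count was 1 without either BLSP library and 6 without 6C3 replicate 2. Cx3cl1 was at 30.6 and 32.5 CPM in BLSP and 53.9 to 214 in the other 8 (-1.68 ± 0.19, adjusted p = 0.000127 by edgeR). Ccl11, which attracts eosinophils, was at 9.62 and 10.4 CPM in BLSP, below PCP and THY (11.3 to 20.2) and above 6C3 and HEC (at most 1.06). Of 25 genes of the interferon response and antigen presentation 1 was higher and 1 lower. H2-D1 (-0.71, adjusted p = 0.0322) was not called without either BLSP, THY or HEC library (adjusted p 0.0549 to 0.373), and its reads may be shared with related class I genes. Irf1 (0.88, adjusted p = 0.0295) was not called without BLSP replicate 2, either THY library or HEC replicate 2 (0.0532 to 0.540).

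Of 18 genes of marrow stroma and fat cells 1, Apoe, was higher, with a list median of -0.40. Apoe was at 138 and 148 CPM in BLSP, 159 and 109 in PCP, 31.1 and 26.9 in THY and 95.5 to 152 in 6C3 and HEC. Its call (0.76, adjusted p = 0.018) was lost without either BLSP library or THY replicate 2 (adjusted p 0.0510 to 0.268). No member of the lists of cell division (30 genes) and immediate early genes (26) was called in either direction by edgeR, with medians of -0.07 and 0.07. Without 6C3 replicate 1, however, 4 immediate early genes were lower, without 6C3 replicate 2 there was 1 lower and 1 higher, and without THY replicate 1 there was 1 lower. Without PCP replicate 1, 2 immediate early genes and 1 of cell division were lower.

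The remaining lists hold markers of other cell types, for which 3.07% higher and 1.93% lower of all genes are again the background. No gene was called by edgeR of 6 B and T lymphocyte, 13 myeloid, mast and osteoclast, and 9 erythroid markers tested. Up to 2 of the myeloid list were called without PCP replicate 1, THY replicate 1 or a 6C3 library. Of 12 pericyte and smooth muscle markers Mcam was higher, at 31.1 CPM in both BLSP libraries and at most 29.8 in the other 8 (1.16 ± 0.20, adjusted p = 0.00348 by edgeR, and 0.0525 and 0.0592 without either BLSP library). Of 12 skeletal muscle markers Myog was higher and Tnni2 lower, both below 5 CPM in every library, and neither was called without BLSP replicate 2 (adjusted p = 0.207 and 0.216). Tnni2 was also not called without BLSP replicate 1 (0.349), THY replicate 2 (0.0592) or HEC replicate 1 (0.0713). Of 8 markers of epithelium and skin Cdh1, which myelinating Schwann cells also express, was higher, at 7.92 and 7.56 CPM in BLSP and at most 3.18 in the other 8 (3.17 ± 0.62, adjusted p = 0.00762, and 0.0505 without BLSP replicate 1).

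**Figure D5:**
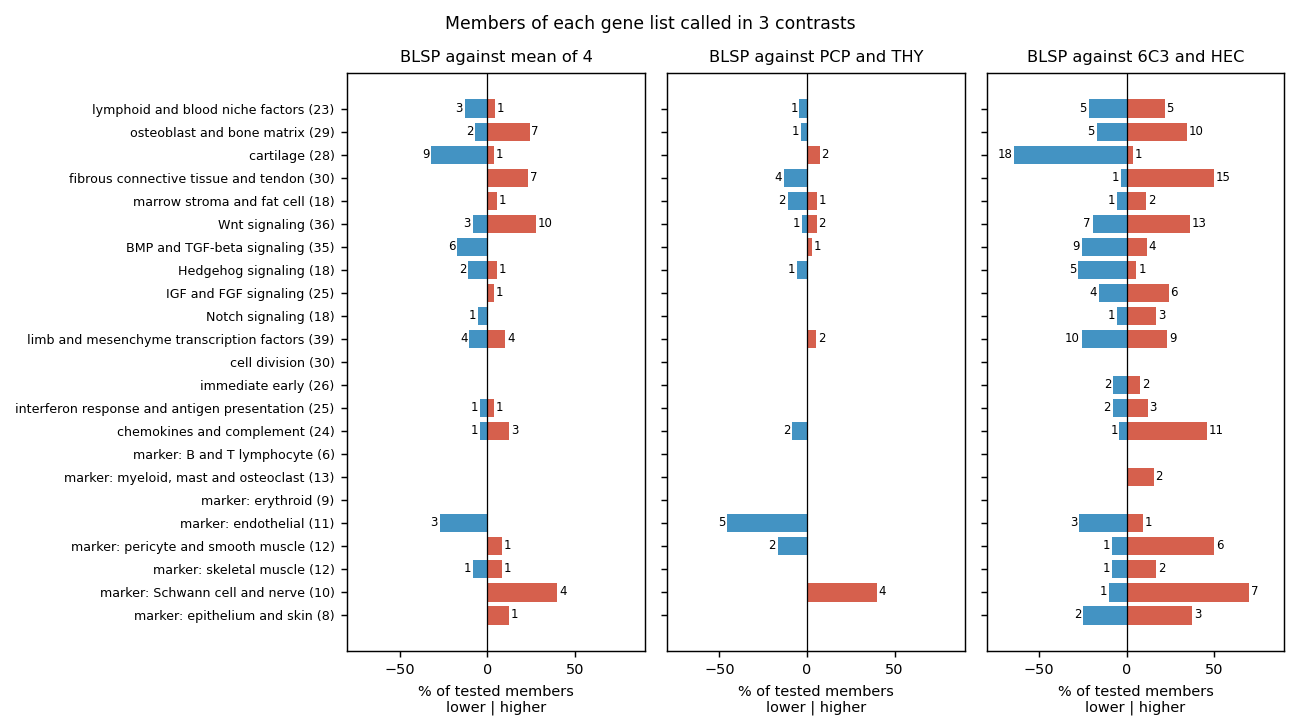
Percent of the tested members of each gene list called higher (red, to the right) or lower (blue, to the left) in BLSP, with the number called at the end of each bar and the number tested in brackets, for the comparison with all 4 populations, with PCP and THY, and with 6C3 and HEC. The list of Schwann cell and nerve markers has 4 of 10 members higher in the left and the middle panel, and 7 of 10 in the right one.

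The IP libraries of the same 5 populations gave a further reading. Per the study, sorted cells of a batch were shared between m6A and RNA sequencing, so this reading is not given as an independent sample of cells. Mitochondrial genes made up 7.71% and 8.17% of the BLSP IP libraries and 4.53% to 9.10% of the other 8. IP libraries weight each mRNA by its m6A, and they were tested by themselves, with 264 of 22285 genes (1.18%) higher and 200 (0.897%) lower in BLSP. Of the 329 input genes above all 8, 321 were tested in IP. Of these, 136 (42.4%) were called higher and none was called lower. Of the 165 lower genes, 63 (38.2%) were called lower and none higher.

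Among the 13 leading genes 11 were called higher in IP. Mbp was at 213 and 211 CPM in BLSP IP, 7.90 and 37.6 in PCP and at most 12.5 elsewhere (5.17, adjusted p = 1.1e-07). Tmprss5 and Bcas1 did not pass the threshold in IP (adjusted p = 0.435 and 0.161). Prg4 was at 224 and 268 CPM in BLSP IP, 389 to 551 in PCP and THY, and 7827 to 15420 in 6C3 and HEC.

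In the upstream populations SSC, pBCSP and BCSP, with 6 WT input libraries, the 13 leading transcripts were lower than in BLSP, at up to 8.83 CPM. These libraries had 19385 to 20747 genes detected, against 25895 and 24530 in BLSP. With TMM over 16 WT input libraries, 276 of the 329 genes (83.9%) had both BLSP libraries above all 6 upstream ones, as had 25.5% of all genes tested. All 13 leading genes did so, and Mbp ranged from 1.51 to 5.59 CPM upstream. Of the 165 lower genes 78 (47.3%) had BLSP below all 6, against 18.5% of all genes. Both sets were chosen by the values of these same BLSP libraries, which favors such shares, so nothing is read from them. Matn3 and Prg4 were both higher upstream than in BLSP, at 1568 to 3263 CPM and 1198 to 3172 CPM. Mest was lower there, at 275 to 522 CPM.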

How the data were processed

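SLIM-seq input libraries of 5 WT populations (2 each) were analysed, with their IP libraries and the 6 upstream WT input libraries for comparison. Per the labels' processing notes and the methods of the study, the authors trimmed reads with fastp 0.20.1, aligned them to GRCm38 with HISAT2 2.2.1 and counted them per gene with featureCounts 2.0.1. The deposited values are counts without normalization. Strand setting, annotation and treatment of reads with several matches are not given in the sources used here, so genes that share exons with an antisense gene (among those named, Mest, Cnp, Prg4, Aspn, Bcas1, Prx, Cldn19, Egfl8, Dhh, Gdf5, Hhip, Irf1, Mcam, Pi16, Sfrp2, Wnt5a, Dll1, Eng, Itgav and Runx2) cannot be told apart from it. Deposited tables of the authors' own comparisons hold fold changes and p-values and were not used.

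Of 46959 entries, 128 named 1-Mar or 2-Mar were left out (up to 0.390% of a library). Counts were fitted in R 4.3.3 with edgeR 4.0.16 (filterByExpr, TMM, quasi-likelihood F test, 1 term per population, 5 residual degrees of freedom), and BLSP was contrasted with the mean of the other 4. P-values were adjusted by Benjamini-Hochberg over all genes tested, and the threshold was 0.05. Standard errors are the absolute log2 fold change over the square root of F. The fit was tested on simulated data. With 2 libraries a population, p-values measure the spread between these samples, which may be technical, and counting precision is set by depths of 19795666 to 44046651. Positions and gene types are from GENCODE vM21, in which 44687 of 46831 symbols had a single match. Figures were drawn in matplotlib 3.10.9.

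Genes named by rule were called, lay outside all 8 other libraries and had plain symbols. These were the 15 largest rises at 10 CPM or more, the 5 highest in CPM, the 12 largest falls and, inside or outside those libraries, up to 4 called members of each of 24 gene lists by smallest p. Other genes, called or not, were named after their values were seen. Certain genes are not reported here and were left out of lists and figures. The comparisons by Thy1 gate were added after seeing the data. Members and lists were chosen with earlier results of these data known. Sort antigens were left out of tests, and Tek out of the endothelial list. Alternatives were DESeq2 1.42.0 (Wald test or size factors), library size alone, other filters, a replicate block, all 16 WT input libraries, each library or population left out, a single group for the 8 libraries, and the thresholds of the study.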

Additional observations from a re-analysis of the deposited data

How the results depend on the processing

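The comparison rests on 2 libraries a population. A direct permutation of 2 against 8 libraries, which was not run, has only 45 splits. Its smallest two-sided p, taken as double the one-sided p, would be 0.0444, so calls come from the model over all genes. In the fits without a library the lone replicate is assumed to vary like the others. Depth limits genes at or near 0 counts in 6C3 and HEC, whose fitted fold changes have no fixed size.

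Counts of genes called moved with the settings as follows, with the main values of 602 higher, 378 lower, 329 above all 8 and 165 below all 8. The thresholds of the study (log2 fold change beyond 0.5, unadjusted p under 0.05) gave 1726, 1093, 620 and 326, library size alone 1224, 201, 673 and 61, and no filter 971 higher and 643 lower. DESeq2 gave 721 higher and 666 lower. All 16 libraries gave 356 higher, 219 above and 103 below. The single group of 8 libraries gave 8, 0, 8 and 0 by edgeR, with 1256 genes at an unadjusted p under 0.05. Leaving out PCP gave 1003, 710, 732 and 518, THY 290 below, 6C3 330, 193 and 105 below, and HEC 320 and 166. Over the libraries left out, these ranged from 247 to 866, 80 to 652, 190 to 451 and 58 to 360.

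The total of 111 against PCP became 1302 with the thresholds of the study, 307 with DESeq2, 388 without a filter and 34 with 16 libraries (27 to 228 without a library). That of 539 against THY became 2534, 1031, 1076 and 328 (178 to 933). The total of 1754 against 6C3 became 4278 with the thresholds of the study (806 to 2780 without a library), and that of 2054 against HEC 4191 (1077 to 2687). Within the Thy1+ gate the total of 228 became 1694 with those thresholds, 524 with DESeq2, 606 without a filter and 111 with 16 libraries (80 to 446), and across it that of 2547 became 4570, and 3892 with library size alone (1209 to 3228). In IP libraries the total of 464 became 964 with DESeq2 and 819 without a filter (359 to 1111). The cause of these shifts was not tested.

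Of 86 genes called against all 4 populations and followed one by one, 54 were called under all 23 alternatives but the single group, where 8 were. Those 8 are all the genes that the single-group fit called. None of them was named by rule, and they were followed after their values had been seen. The 8 are therefore no share of genes picked beforehand. The direction of Tnfsf13b alone reversed, to -0.23 in the single group. Same-numbered replicates did not deviate together (correlations of -0.201 to 0.109), so numbers were not taken as pairs. With the replicate block 538 genes were higher and 331 lower, 299 above and 145 below all 8.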
